A study of Homo sapiens with 7 samples.

Results

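RUNX2 peaks and H3K27ac regions were described at 9 genes of the ETS family of transcription factors, ETS1, ETS2, FLI1, ERG, ELF1, SPI1, SPIB, ETV6 and GABPA. The 9 genes, of 19974 protein-coding genes on chromosomes 1 to 22 and X, were chosen by name with earlier results of these data known. Their intervals were selected on position alone, as those of the 4 deposited peak lists that overlap the RefSeq span of a gene or the 50 kb on either side of it. This gave 445 of 180466 intervals. Because an interval enters only by having been called, its presence is a description and was given no test. ETS1 and FLI1 are neighbours on chromosome 11, 97.6 kb apart, and ERG and ETS2 lie 143 kb apart on chromosome 21. The windows of ETS1 and FLI1 overlap by 2427 bp, but no interval fell in the windows of both.

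The study mapped the genome-wide binding of RUNX2, a DNA-binding factor of the RUNX family, and the histone mark H3K27ac by chromatin immunoprecipitation and sequencing in 2 cell lines of T-cell acute lymphoblastic leukaemia (T-ALL). Its title names immature and KMT2A-rearranged T-ALL. KARPAS-45, an established line known to carry a KMT2A fusion, gave 1 RUNX2 library (antibody D1H7) and 1 H3K27ac library (antibody ab4729). PER-117, an established T-ALL line, gave the same with the same antibodies, and was grown with less serum than KARPAS-45. The cells of both lines were untreated as far as the labels say. Each line is a single culture model, and each list sums over its culture, so weak binding in all cells and binding in few cells cannot be told apart. The 3 input libraries were not analysed here. With 1 library per line and antibody, every difference between the lines is one between libraries and has no replicate error and no test.

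The lists of the lines differ in size. KARPAS-45 had 42911 RUNX2 intervals with a median fold enrichment of 6.36 and PER-117 had 21027 with a median of 5.72, where fold enrichment is the authors' ratio of signal at a peak to background. H3K27ac covered 167 Mb in 63265 regions in KARPAS-45 and 76.2 Mb in 53263 regions in PER-117. Its median fold enrichment was 2.38 in KARPAS-45 cells and 2.92 in PER-117, and its lowest −log10 q was 0.431 in KARPAS-45 cells and 1.01 in PER-117. H3K27ac folds below come from regions of unlike width, and do not measure how much more acetylated a site was in 1 line. The median region was 1.27 kb wide in KARPAS-45 and 0.816 kb in PER-117, and the widest was 368 kb in KARPAS-45 and 38.65 kb in PER-117. Read depth was not analysed here, so its part in these differences was not tested. As a check of the label, H3K27ac lay at an end of 8 of 8 T-cell marker genes in KARPAS-45 and 7 of 8 in PER-117, the exception being CD5. H3K27ac lay at 0 of 4 myeloid genes in either line. The share of all protein-coding genes was 61.0% in KARPAS-45 cells and 55.5% in PER-117, so the check is a weak one.

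ETS factors share a winged helix-turn-helix domain that binds DNA around a GGAA core, and the family holds activators and repressors with overlapping sites. ETS1 and RUNX factors bind cooperatively at joined sites in T-cell genes, where RUNX binding relieves the autoinhibition of ETS1. H3K27ac marks active promoters and enhancers, and long unbroken stretches of it are typical of genes that specify a cell's identity.

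RefSeq gives start windows, from 250 bases before a transcription start to 50 after it, for 6 of the 9 genes, 12 windows in all on GRCh38.p14, a release of the hg38 build of the peak lists. The 5 windows overlapped by a RUNX2 peak in at least 1 line are shown because they are where a peak meets a known start. The sixth, an internal start of ERG, is shown as a contrast, since PER-117 was acetylated across it with no RUNX2 peak on it. Each is printed 5′ to 3′ on the strand of its gene. Capitals mark the longer ETS pattern CGGAAG and the 6-base TGNGGT, on either strand. TGNGGT is a loose form of the RUNX core TGTGGT with any base at N, so a match need not be a RUNX site.
ETV6, chr12:11649424-11649723, plus strand: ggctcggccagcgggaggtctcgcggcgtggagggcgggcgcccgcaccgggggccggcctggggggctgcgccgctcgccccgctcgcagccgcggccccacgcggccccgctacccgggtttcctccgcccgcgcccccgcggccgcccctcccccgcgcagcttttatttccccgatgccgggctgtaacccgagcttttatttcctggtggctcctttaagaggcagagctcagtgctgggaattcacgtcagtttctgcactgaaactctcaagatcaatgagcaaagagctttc
ELF1, chr13:41061337-41061636, minus strand: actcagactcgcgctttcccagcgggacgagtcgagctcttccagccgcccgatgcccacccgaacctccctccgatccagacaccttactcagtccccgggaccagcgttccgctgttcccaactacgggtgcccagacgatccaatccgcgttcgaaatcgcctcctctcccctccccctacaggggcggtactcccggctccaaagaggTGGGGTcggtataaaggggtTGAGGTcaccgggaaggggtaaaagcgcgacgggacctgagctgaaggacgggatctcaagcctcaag
GABPA, chr21:25734722-25735021, plus strand: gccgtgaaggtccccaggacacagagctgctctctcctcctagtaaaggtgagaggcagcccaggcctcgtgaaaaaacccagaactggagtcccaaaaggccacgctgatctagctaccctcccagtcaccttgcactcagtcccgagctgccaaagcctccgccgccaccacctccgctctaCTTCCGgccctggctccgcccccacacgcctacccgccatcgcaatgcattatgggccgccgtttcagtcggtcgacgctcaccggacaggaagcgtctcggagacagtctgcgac
ETS2, first start, chr21:38804933-38805232, plus strand: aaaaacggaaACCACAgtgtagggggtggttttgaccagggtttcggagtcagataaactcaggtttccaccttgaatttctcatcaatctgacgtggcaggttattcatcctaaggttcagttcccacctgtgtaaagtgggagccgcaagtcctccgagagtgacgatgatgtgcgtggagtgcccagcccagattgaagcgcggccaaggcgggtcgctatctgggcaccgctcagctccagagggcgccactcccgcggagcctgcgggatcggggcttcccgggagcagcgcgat
ETS2, second start, chr21:38805679-38805978, plus strand: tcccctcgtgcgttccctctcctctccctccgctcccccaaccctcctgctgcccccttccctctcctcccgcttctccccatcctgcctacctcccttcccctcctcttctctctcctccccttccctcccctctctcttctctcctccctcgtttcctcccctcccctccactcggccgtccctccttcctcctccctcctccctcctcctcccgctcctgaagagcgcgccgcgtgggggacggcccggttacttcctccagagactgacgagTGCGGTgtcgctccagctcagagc
ERG, internal start, chr21:38498455-38498754, minus strand: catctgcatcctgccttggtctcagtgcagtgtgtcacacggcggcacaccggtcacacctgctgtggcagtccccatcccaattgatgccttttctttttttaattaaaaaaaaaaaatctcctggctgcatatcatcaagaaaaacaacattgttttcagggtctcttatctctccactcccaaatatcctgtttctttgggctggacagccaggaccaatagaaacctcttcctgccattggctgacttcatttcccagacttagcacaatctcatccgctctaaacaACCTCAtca

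The RUNX core pattern, TGTGGT, was in 1 of the 12 windows, the first of ETS2, as ACCACA at 240 bases before the start, and in 13.1% of all 35116 windows of the table. The wider TGNGGT, which includes it, was in 5 of 12 windows, of ELF1, ERG and ETS2, against 43.2% of all windows. The ERG windows with a match overlap and hold the same one, so that site is counted more than once. In ELF1 TGNGGT occurred as TGGGGT at 38 bases before the start and as TGAGGT at 18, neither of them the RUNX core. The RUNX2 summit lay 2 bp from the first of these in KARPAS-45 and 49 bp from it in PER-117. In ETS2 the nearest PER-117 summits lay 167 bp from the match of the first window and 98 bp from that of the second. CGGAAG was in 1 window, of GABPA, against 19.5% of all windows, at 66 bases before the start and 83 bp from the KARPAS-45 summit. GGAA was in 10 of 12 windows and in 95.5% of all, and the joined GGATGTGG in 0 of 12 and 1.57% of all. The ETV6 window held GGAA but neither marked pattern. These matches describe letters in a window and not bound sites.

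**Figure D1:**
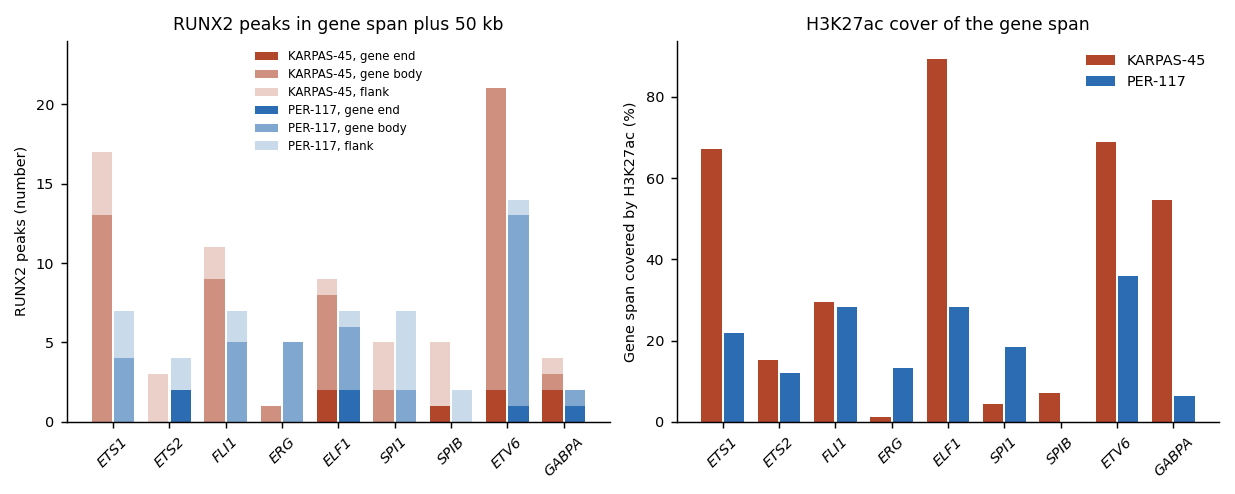
Left, number of RUNX2 peaks in the span of each gene plus 50 kb on either side, stacked by position, for KARPAS-45 (red, left bar) and PER-117 (blue, right bar). Right, percent of the gene span covered by H3K27ac. ETV6 has the most peaks in both lines (21 in KARPAS-45 cells and 14 in PER-117), and ELF1 has the highest cover in KARPAS-45 (89.3%) and ETV6 in PER-117 (35.8%).

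The 9 windows, 1918 kb in all, held 76 RUNX2 peaks in KARPAS-45 cells and 55 in PER-117. Among the 5000 strongest peaks of each line the order turned, with 6 in KARPAS-45 and 13 in PER-117. That cut keeps a smaller part of the 42911 KARPAS-45 peaks than of the 21027 PER-117 peaks, so the turn is not a result about these genes. The strongest 10% of each list held 6 of the 76 KARPAS-45 peaks and 4 of the 55 PER-117 peaks. Under the full lists every one of the 9 genes had at least 1 peak in each line. Among all protein-coding genes, 85.4% had a RUNX2 peak in the same kind of window in KARPAS-45 cells and 73.1% in PER-117, so that having one sets the 9 genes little apart. Most of the peaks lay inside the genes and away from their ends. In KARPAS-45 7 were within 1 kb of a gene end, 51 in the body and 18 in the flank, and in PER-117 6 were at an end, 33 in the body and 16 in the flank. The same split over all genes was not computed, and several of the 9 spans are long. It is thus not read as a result about these genes. Of the flank peaks, 7 in KARPAS-45 cells and 5 in PER-117 lay at an end of another gene or inside it. Per 100 kb of window the 9 genes had a median of 4.04 peaks in KARPAS-45 cells and 3.06 in PER-117, where the medians over all genes were 2.60 in KARPAS-45 and 1.10 in PER-117.

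KARPAS-45 had 17 RUNX2 peaks at ETS1, against 7 in PER-117, and 11 at FLI1, against 7. It also had more at ETV6, ELF1, SPIB and GABPA. At ERG, KARPAS-45 had 1 peak and PER-117 had 5. At SPI1 KARPAS-45 had 5 and PER-117 had 7, and at ETS2 KARPAS-45 had 3 and PER-117 had 4. These 3 genes thus went against the lists as a whole, where KARPAS-45 had the greater number. The spacing per 100 kb was closest at ETS1 in KARPAS-45, with 7.43 peaks, and at SPI1 in PER-117, with 5.66. It was widest at ERG in both lines, with 0.253 in KARPAS-45 cells and 1.27 in PER-117.

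The 50 kb limit of the windows cut through some sites. Just inside it lay a KARPAS-45 peak of 3.65-fold at 49.5 kb from SPIB and the peaks at 47.7 kb from SPI1 in KARPAS-45 and 47.5 kb in PER-117. Just outside it lay KARPAS-45 peaks of 3.15-fold at 50.6 kb from GABPA and 4.86-fold at 50.8 kb from ETS2. A stronger one lay 54.0 kb from SPIB in KARPAS-45, with 29.98-fold enrichment, and at 54.1 kb in PER-117, with 7.34-fold.

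At the gene ends, RUNX2 was called at 4 of 9 genes in each line. Over all protein-coding genes the share was 48.3% in KARPAS-45 cells and 32.5% in PER-117, and among genes with H3K27ac at an end it was 75.7% in KARPAS-45 cells and 57.1% in PER-117. ETV6, ELF1 and GABPA had RUNX2 at an end in both lines, SPIB in KARPAS-45 and ETS2 in PER-117. SPI1, ETS1, FLI1 and ERG had it in neither. H3K27ac lay at an end of 5 of 9 genes in each line, against 61.0% of all genes in KARPAS-45 cells and 55.5% in PER-117. ETV6, ELF1, GABPA and ETS2 had it in both lines, SPIB in KARPAS-45 and SPI1 in PER-117. In each line the 4 genes with RUNX2 at an end were all among the 5 with H3K27ac there. That 4 of 5 is the count to set beside the 75.7% in KARPAS-45 and 57.1% in PER-117. ETS1, FLI1 and ERG had neither mark within 1 kb of an end of their RefSeq span in either line, although all 3 carried both marks in their bodies. Starts inside a span were not counted as ends, so this does not show that their promoters lacked the marks. The internal ERG start printed above was acetylated in PER-117, and no start windows were available for ETS1 and FLI1.

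ETS1 (chr11:128458765-128587558, hg38), the ETS factor that pairs with RUNX proteins in T cells and is needed for T-cell development, had its strongest RUNX2 site outside the gene. The site lay 35.96 kb beyond the lower end of the span, with 43.0-fold enrichment in KARPAS-45 and 9.58-fold in PER-117. The KARPAS-45 peak is at chr11:128422582-128423026. It ranked 302 of 42911 in KARPAS-45 and 4190 of 21027 in PER-117, and the summits of the lines were 1 bp apart. It was the strongest peak of the 9 windows in KARPAS-45. In the body, the strongest peak of KARPAS-45 had 17.2-fold enrichment at 23.8 kb and had no PER-117 counterpart, while the strongest of PER-117, at 18.2 kb with 5.82-fold, was also in KARPAS-45 with 8.77-fold. A pair of sites beyond the upper end, at 152 kb and 155 kb from the lower end, was shared too, with 12.2-fold and 9.33-fold enrichment in KARPAS-45 and 5.34-fold and 5.81-fold in PER-117. In all, 5 of the 17 KARPAS-45 peaks and 5 of the 7 PER-117 peaks at ETS1 were in both lines, and every one of the 24 summits lay in H3K27ac of its own line.

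H3K27ac was laid out differently at ETS1 in the 2 lines. KARPAS-45 had 1 region of 72.3 kb inside the gene, number 65 by width of its 63265, which held 10 RUNX2 peaks. PER-117 had several shorter regions over the same stretch, covering 32.3% of it, and its widest was 12.2 kb with 2 RUNX2 peaks. No region of the whole PER-117 list was wider than 38.65 kb, so unbroken stretches of such width were absent there at every gene. Of the ETS1 span, 67.2% was covered in KARPAS-45 cells and 21.8% in PER-117, and 100% of the PER-117 cover lay inside that of KARPAS-45.

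FLI1 (chr11:128685132-128813267, hg38), a factor of blood stem cells and megakaryocytes and the partner of EWSR1 in Ewing sarcoma, had a strong RUNX2 site in its body at 40.6 kb (chr11:128725488-128725997 in KARPAS-45). Enrichment there was 38.7-fold in KARPAS-45 and 11.2-fold in PER-117, with summits 7 bp apart, which ranked 474 in KARPAS-45 cells and 3044 in PER-117. A weaker site at 10.9 kb was shared as well, with 7.28-fold in KARPAS-45 and 5.73-fold in PER-117. The other peaks of FLI1 differed by line. PER-117 had a peak of 22.2-fold 6.89 kb beyond the lower end, rank 485 of its list, inside an H3K27ac region of 6.46 kb. KARPAS-45 had neither a RUNX2 peak nor H3K27ac over that region. KARPAS-45 had a peak of 17.3-fold beyond the upper end, 145 kb from the lower end. PER-117 was acetylated there without a RUNX2 peak.

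The acetylated share of the FLI1 span was close in the 2 lines, 29.4% in KARPAS-45 cells and 28.4% in PER-117, in 13 regions at the ends or in the body in KARPAS-45 cells and 32 in PER-117. Of the acetylated bases, 65.4% of those of KARPAS-45 and 67.9% of those of PER-117 were acetylated in both. FLI1 and its neighbour ETS1 thus differed, since at ETS1 the PER-117 cover was nested in that of KARPAS-45 and at FLI1 each line had stretches of its own.

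**Figure D2:**
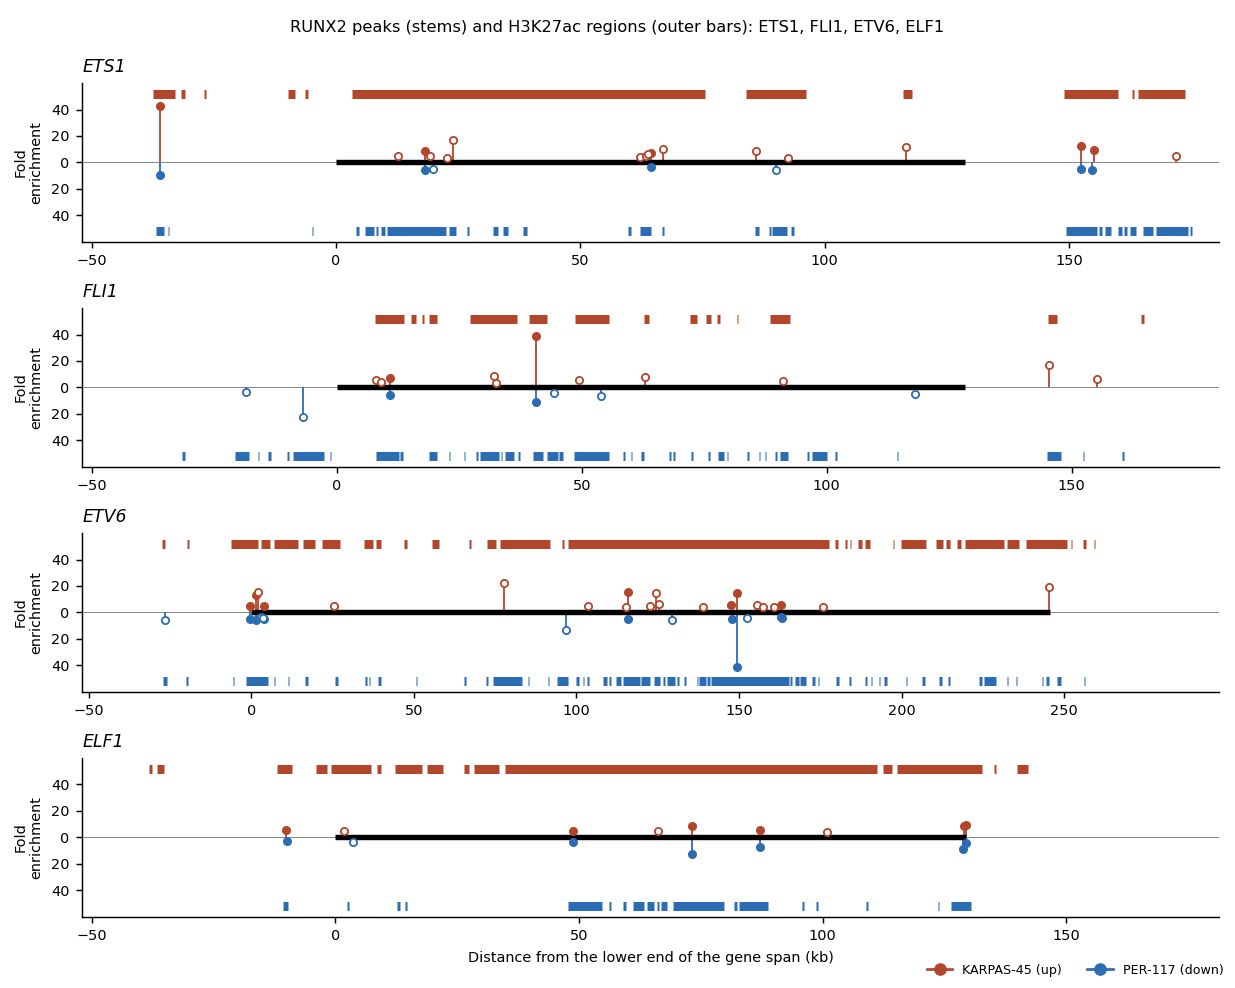
RUNX2 peaks (stems, height is fold enrichment) and H3K27ac regions (outer bars) along ETS1, FLI1, ETV6 and ELF1 in kb from the lower end of the gene span (black bar), with KARPAS-45 upwards in red and PER-117 downwards in blue. Filled circles are peaks found in both lines and open circles peaks of 1 line. The KARPAS-45 bars over ETS1, ELF1 and ETV6 run unbroken for 72.3, 76.5 and 80.4 kb where PER-117 has several shorter ones. The widest region of the whole PER-117 list is 38.65 kb.

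ERG (chr21:38367261-38661783, hg38), a stem cell factor that in mice is shut off as thymocytes commit to the T lineage, had 1 RUNX2 peak in KARPAS-45 cells and 5 in PER-117, all inside the gene. The KARPAS-45 peak, at 19.9 kb (chr21:38386866-38387369) with 14.5-fold enrichment, was also in PER-117 with 9.31-fold and a summit 74 bp away. The other PER-117 peaks had 4.08-fold at 9.60 kb and 4.13-fold, 8.80-fold and 8.77-fold at 109, 110 and 112 kb. These last 3 lay in 1 H3K27ac region of 11.1 kb, number 287 of 53263 by width, which overlapped 0 KARPAS-45 regions.

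PER-117 also had an H3K27ac region of 8.55 kb at 125 kb to 133 kb, with 11.1-fold enrichment and 0 RUNX2 peaks. It covers the internal ERG start whose sequence is given, 19.5 kb from the nearest PER-117 RUNX2 summit. KARPAS-45 had no H3K27ac there. KARPAS-45 had 1 H3K27ac region in the whole ERG window, 3.22 kb around its RUNX2 peak, with a low fold of 1.27 and −log10 q of 0.975. PER-117 had 20, of which the one at the shared site had 5.87-fold enrichment. H3K27ac covered 1.09% of the ERG span in KARPAS-45 cells and 13.3% in PER-117, so the direction was opposite to that of the whole lists.

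ETS2 (chr21:38805183-38824955, hg38), a factor that responds to Ras and MAP kinase signalling, had no RUNX2 peak at its start in KARPAS-45 but had them there in PER-117. The PER-117 summits lay 70 bp before the first start, with 3.49-fold enrichment, and 69 bp before the second start, with 3.72-fold. Both are weak beside the PER-117 median of 5.72. The H3K27ac region on these starts was 2.22 kb wide with 1.88-fold enrichment in KARPAS-45 and 2.75 kb with 9.45-fold in PER-117. The nearest KARPAS-45 RUNX2 summit lay 37.6 kb below the first start. The strongest RUNX2 site of ETS2 was shared and outside the gene, at 57.0 kb from its lower end. Enrichment was 12.9-fold in KARPAS-45 and 6.05-fold in PER-117, with summits 10 bp apart. The site lay outside H3K27ac in both lines.

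SPI1 (chr11:47354860-47378547, hg38), which encodes PU.1, the driver of myeloid and B-cell fates that is silenced in early T-cell development, had no RUNX2 peak at an end in either line. Its strongest sites lay beyond the upper end of the span, and their distances are given from the lower end. At 40.01 kb enrichment was 4.40-fold in KARPAS-45 and 16.5-fold in PER-117, a rank of 33978 in KARPAS-45 cells and 1204 in PER-117. At 45.2 kb PER-117 had 12.4-fold and KARPAS-45 no peak, although its H3K27ac covered the summit. At 53.6 kb KARPAS-45 had 9.48-fold, inside SLC39A13, a zinc transporter gene, and PER-117 had 3.83-fold at 53.1 kb, at an end of the same gene. The pair at 71.6 kb in KARPAS-45, with 6.78-fold, and 71.5 kb in PER-117, with 13.9-fold, lay at an end of PSMC3, a proteasome subunit gene.

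Inside SPI1, a weak shared site at 19.2 kb had 5.80-fold enrichment in KARPAS-45 and 3.41-fold in PER-117, unacetylated in both. PER-117 had a further peak of 6.76-fold at 4.90 kb, which was acetylated in both lines, and KARPAS-45 had one of 4.40-fold at 14.9 kb, outside H3K27ac. H3K27ac covered 4.49% of the SPI1 span in KARPAS-45 cells and 18.3% in PER-117, and the widest PER-117 region of the window, 6.87 kb, surrounded the shared site at 40.01 kb. At the upper end PER-117 had regions of 0.868 kb and 0.352 kb with 3.04-fold and 2.74-fold enrichment. In the same line the regions over the starts of ETV6, ELF1, GABPA and ETS2 had between 8.70-fold and 13.3-fold enrichment, and those at the upper ends of ETV6 and ETS2 had 3.18-fold and 2.42-fold.

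SPIB (chr19:50418938-50431314, hg38), a relative of PU.1 that acts in B cells and plasmacytoid dendritic cells, had its own RUNX2 peak in KARPAS-45. It lay 0.966 kb after the start with 6.005-fold enrichment. The H3K27ac region under it was weak, with a fold of 1.20 and −log10 q of 0.749, and PER-117 had neither mark in the gene. H3K27ac covered 7.07% of the SPIB span in KARPAS-45 cells and 0% in PER-117. Both peaks shared by the lines lay in the lower flank at other genes. One was at NR1H2, a liver X receptor gene, with 11.4-fold in KARPAS-45 and 2.71-fold in PER-117. The other lay between NR1H2 and POLD1, a DNA polymerase gene, with 10.0-fold in KARPAS-45 and 5.37-fold in PER-117.

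**Figure D3:**
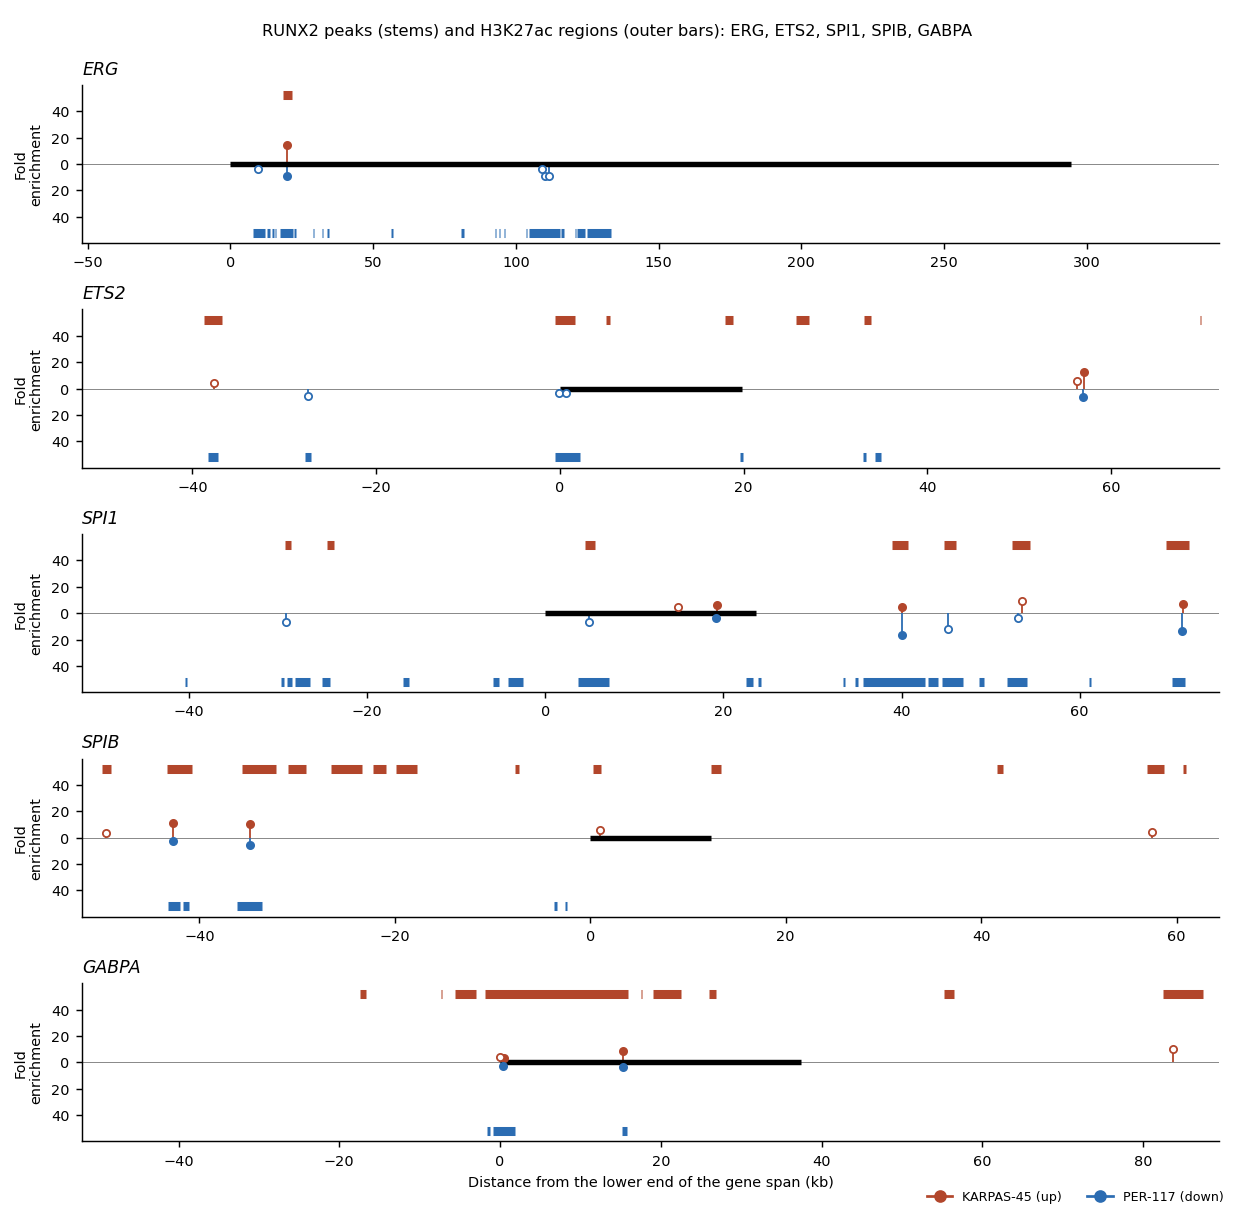
RUNX2 peaks and H3K27ac regions along ERG, ETS2, SPI1, SPIB and GABPA, drawn as stems and outer bars with KARPAS-45 upwards in red and PER-117 downwards in blue, in kb from the lower end of the gene span (black bar). Filled circles are peaks found in both lines. ERG carries 1 KARPAS-45 bar of 3.22 kb and 20 PER-117 bars, the widest of 11.1 kb, and GABPA an unbroken KARPAS-45 bar of 17.8 kb from its start.

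ELF1 (chr13:40931919-41061386, hg38), an activator of blood cells that acts at T-cell genes, had RUNX2 peaks at its start in both lines. They lay at the upper end of the span, where the gene starts 123 bp from WBP4, a splicing factor gene, and cannot be assigned to 1 of the 2 genes. Enrichment was 8.71-fold and 9.08-fold in KARPAS-45 and 8.77-fold and 4.12-fold in PER-117. In the body, the site at 73.1 kb had 8.64-fold in KARPAS-45 and 12.8-fold in PER-117 with summits 26 bp apart, and a second at 87.2 kb had 5.35-fold in KARPAS-45 and 7.67-fold in PER-117. The flank peak, 10.2 kb beyond the lower end, was weaker, with 5.36-fold in KARPAS-45 and 2.86-fold in PER-117. Of the peaks, 6 of 9 in KARPAS-45 and 6 of 7 in PER-117 were in both lines, the highest shares among the genes with more than 5 peaks in each line.

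The widest H3K27ac region of ELF1 in KARPAS-45 was 76.5 kb, number 60 by width, with 5 RUNX2 peaks in it. PER-117 covered 42.0% of the same stretch, and its widest region of 10.6 kb held the shared site at 73.1 kb. H3K27ac covered 89.3% of the ELF1 span in KARPAS-45 cells and 28.3% in PER-117, and all of the PER-117 cover was also acetylated in KARPAS-45. Under the ELF1 start the regions were 17.6 kb wide with 4.31-fold enrichment in KARPAS-45 and 4.10 kb with 8.70-fold in PER-117.

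ETV6 (chr12:11649674-11895377, hg38), a repressor needed by blood stem cells, mutated in immature T-ALL and fused to RUNX1 in childhood B-cell leukaemia, had the most RUNX2 peaks of the 9 genes, 21 in KARPAS-45 cells and 14 in PER-117. At its start the peak was weak in both lines, with 5.04-fold enrichment in KARPAS-45 and 5.09-fold in PER-117, and its summit lay 316 bp before the start in KARPAS-45 cells and 352 bp in PER-117. H3K27ac over the start was 8.15 kb wide with 3.52-fold enrichment in KARPAS-45 and 6.89 kb with 13.3-fold in PER-117. A stronger shared RUNX2 peak lay at 1.37 kb, with 12.9-fold in KARPAS-45 and 6.14-fold in PER-117. The next KARPAS-45 peak, 15.0-fold at 1.96 kb, overlapped the edge of the KARPAS-45 H3K27ac region over the start, with its summit just outside it, and its summit lay inside an H3K27ac region of PER-117. At the far end of the gene KARPAS-45 had a peak of 19.0-fold, within an H3K27ac region of 12.7 kb, with no PER-117 counterpart.

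The strongest RUNX2 site of ETV6 differed by line. At 149 kb (chr12:11798922-11799230 in KARPAS-45) enrichment was 14.5-fold in KARPAS-45, rank 5817, and 41.6-fold in PER-117, rank 24 of 21027, with summits 17 bp apart. It was the strongest peak of the 9 windows in PER-117. In KARPAS-45 the strongest ETV6 peak was at 77.7 kb, with 22.03-fold and no PER-117 peak, although the summit lay in PER-117 H3K27ac. Another shared site, at 116 kb, had 15.4-fold in KARPAS-45 and 5.31-fold in PER-117. The single flank peak was a PER-117 one, of 5.73-fold at 26.5 kb beyond the lower end.

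The KARPAS-45 H3K27ac region between 97.3 kb and 178 kb of ETV6 was 80.4 kb wide, number 56 of its list, and held 14 RUNX2 peaks. PER-117 covered 64.1% of that stretch, in 23 regions, with 7 RUNX2 peaks. The widest PER-117 region, 24.02 kb with 5 RUNX2 peaks, lay inside it around the site at 149 kb and was number 19 by width of 53263 in its own list. H3K27ac covered 68.9% of the ETV6 span in KARPAS-45 cells and 35.8% in PER-117. By width, the widest regions of ETS1 and ELF1 were numbers 65 and 60 in KARPAS-45 and numbers 210 and 336 in PER-117.

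GABPA (chr21:25734972-25772460, hg38), the DNA-binding subunit of GA-binding protein, which drives mitochondrial and housekeeping genes, had weak RUNX2 peaks at its start in both lines. Its lower end overlaps ATP5PF, an ATP synthase subunit gene, by 682 bp, so the peaks cannot be assigned to 1 of the 2 genes. Enrichment was 3.92-fold and 3.28-fold in KARPAS-45 and 2.83-fold in PER-117. The peak at 15.3 kb was stronger, with 8.66-fold in KARPAS-45 and 3.89-fold in PER-117. In the upper flank KARPAS-45 had a peak of 9.84-fold at 83.7 kb from the lower end, with no PER-117 counterpart. H3K27ac at the start was 17.8 kb wide with 3.001-fold enrichment in KARPAS-45 and 2.75 kb wide with 10.9-fold in PER-117. All H3K27ac together covered 54.6% of the GABPA span in KARPAS-45 cells and 6.47% in PER-117.

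The longer H3K27ac list of KARPAS-45 bears on these comparisons. When it was shortened to its widest regions at the covered length of PER-117, the acetylated part of the span was larger in KARPAS-45 at 4 genes. It was 84.7 kb against 28.02 kb in PER-117 at ETS1, 98.0 kb against 36.7 kb at ELF1, 133 kb against 88.0 kb at ETV6 and 15.9 kb against 2.43 kb at GABPA. At FLI1 the order turned, with 16.7 kb in KARPAS-45 and 36.3 kb in PER-117. ERG, ETS2, SPI1 and SPIB had no KARPAS-45 cover left, since keeping the widest regions removes the narrow ones at these genes. The same rule keeps wide regions, such as those of ETS1, ELF1, ETV6 and GABPA, so this comparison is no check on list length.

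Across the 9 windows the 2 lines shared 29 KARPAS-45 peaks, which overlapped 30 PER-117 peaks. These were 38.2% of 76 in KARPAS-45 (95% Wilson interval 28.1% to 49.4%) and 54.5% of 55 in PER-117 (41.5% to 67.0%). Over the whole lists the shares were 31.2% in KARPAS-45 cells and 63.6% in PER-117, both inside these intervals, which cover counting error only. The summits of 24 of the 29 pairs lay within 100 bp of each other and the median distance was 30 bp. Pairs were defined by overlap, which itself brings summits near each other. Shared peaks had a median of 8.66-fold in KARPAS-45 and 5.35-fold in PER-117, and peaks of 1 line 5.11-fold in KARPAS-45 and 5.06-fold in PER-117. Relative to the length of its list, a pair ranked higher in KARPAS-45 in 21 cases and in PER-117 in 8. Those 8 included the ETV6 site at 149 kb and the SPI1 sites at 40.01 kb and 71.6 kb. Such distances, fold medians and rank counts were not computed over the whole lists, which differ in length. They are thus not read as traits of these genes.

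**Figure D4:**
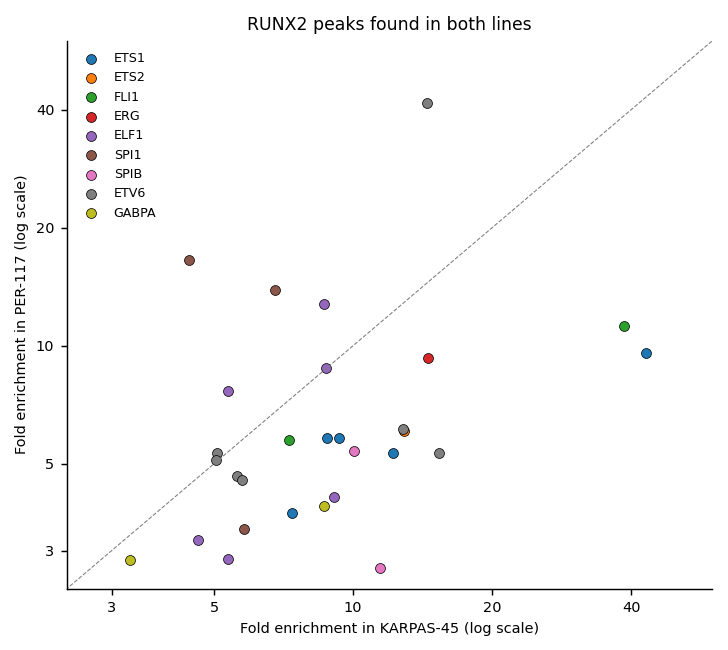
Fold enrichment of the 29 RUNX2 peaks found in both lines, KARPAS-45 on the horizontal and PER-117 on the vertical axis, both on log scales, with 1 point per pair coloured by gene and the dashed line at equal values. The ETS1 and FLI1 sites of 43.0-fold and 38.7-fold in KARPAS-45 lie far right, and the ETV6 site of 41.6-fold in PER-117 lies at the top.

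Most RUNX2 summits at the 9 genes lay in H3K27ac. In KARPAS-45 70 of 76 summits, 92.1% (83.8% to 96.3%), were in H3K27ac of that line, against 65.2% of all its summits. In PER-117 50 of 55, 90.9% (80.4% to 96.1%), were, against 75.6% of all. The intervals take summits as independent, although single KARPAS-45 regions of ETS1, ELF1 and ETV6 held 10, 5 and 14 RUNX2 peaks, and so are too narrow. The acetylated share of the windows was itself high, 28.3% in KARPAS-45 cells and 16.4% in PER-117, and the median gene window was covered to 7.17% in KARPAS-45 cells and 3.33% in PER-117. With the KARPAS-45 list shortened to its 5379 widest regions, which cover the same length as the PER-117 list, the KARPAS-45 share was 63.2%, against 25.6% of all summits. That list keeps the wide regions of ETS1, ELF1 and ETV6 by its rule. Peaks of 1 line also lay where the other line was acetylated without a called RUNX2 peak. Of the 47 peaks without a PER-117 counterpart in KARPAS-45, 29, or 61.7% (47.4% to 74.2%), lay in PER-117 H3K27ac, against 26.9% of such peaks over the whole list. Of the 25 without a KARPAS-45 counterpart in PER-117, 15, or 60% (40.7% to 76.6%), lay in KARPAS-45 H3K27ac, against 35.9% of such peaks over the whole list.

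The exceptions were spread over the genes. In KARPAS-45 the 6 unacetylated summits were 2 at ETS2, 2 at SPI1, 1 at FLI1 and the ETV6 peak at 1.96 kb. In PER-117 the 5 were 1 each at ETS2, FLI1 and ELF1 and 2 at SPI1. Of the PER-117 peaks without a KARPAS-45 counterpart, 0 of the 4 at ERG and 1 of the 5 at FLI1 lay in KARPAS-45 H3K27ac, against 5 of the 6 at ETV6 and 4 of the 4 at SPI1.

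**Figure D5:**
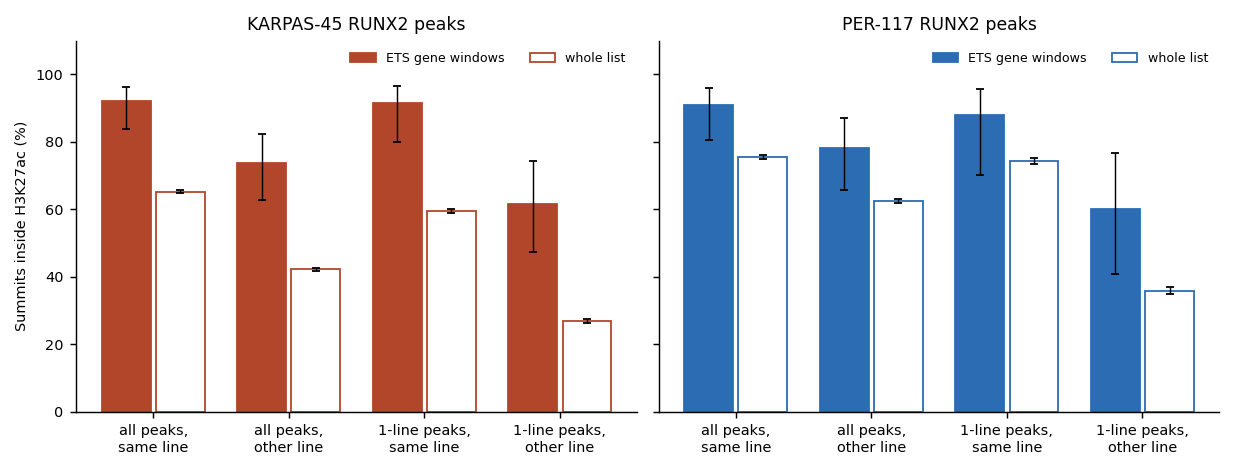
Percent of RUNX2 summits inside H3K27ac for KARPAS-45 peaks (left) and PER-117 peaks (right), for all peaks and for peaks of 1 line, against the H3K27ac of the same line or of the other line. Filled bars are the ETS gene windows, open bars the whole list, and error bars 95% Wilson intervals for counting error. In the ETS gene windows 61.7% of 1-line KARPAS-45 peaks and 60% of 1-line PER-117 peaks lay in H3K27ac of the other line, against 26.9% of the whole KARPAS-45 list and 35.9% of the whole PER-117 list.

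The other 19 genes of the family had RUNX2 at an end in 10 cases in KARPAS-45 cells and 7 in PER-117, of which 6 were shared, and H3K27ac in 10 cases in KARPAS-45 and 7 in PER-117, all 7 shared. Ordered by the lower of their 2 fold enrichments, the shared gene-end peaks were led by ELK3, a Ras-responsive repressor, with 12.8-fold enrichment in KARPAS-45 and 10.4-fold in PER-117, and ELK4, a partner of serum response factor, with 11.5-fold in KARPAS-45 and 8.54-fold in PER-117. Next came FEV, a factor of serotonin neurons, with 16.4-fold in KARPAS-45 and 7.91-fold in PER-117 and no H3K27ac at its ends in either, and ETV3, with 9.08-fold in KARPAS-45 and 7.08-fold in PER-117. ETV5, SPDEF and ETV2 had gene-end H3K27ac in KARPAS-45 and not in PER-117. The median H3K27ac cover of the gene span was 4.22% in KARPAS-45 cells and 0% in PER-117 for these 19, against 29.4% in KARPAS-45 cells and 18.3% in PER-117 for the 9 genes. Over all protein-coding genes it was 5.23% in KARPAS-45 cells and 2.17% in PER-117.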

How the data were processed

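Chromatin immunoprecipitation libraries of RUNX2 and H3K27ac from KARPAS-45 and PER-117 were used as 4 deposited peak lists, 1 per library. The authors deposited 10 columns per interval, among them a score for display, the −log10 of p and of q, the fold enrichment as a linear ratio, and a summit offset. STAR 2.4.2a, MACS2 and hg38 are named in the submitters' processing notes, while no source used here states their roles or thresholds. Lines of 1 RUNX2 peak with several summits were merged, keeping the summit of the line with the highest fold. Reads and depth were not analysed here.

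Gene spans are those of RefSeq on GRCh38.p14 in a table that gives no strand, so a gene end is either end of the span with 1 kb on each side, and distances run from the lower end. Starts and sequences came from the RefSeq start windows of 6 genes, and exons were not resolved. An interval was placed at a gene end, otherwise in the body, otherwise in the flank. Overlap meant at least 1 bp, and a summit was acetylated when inside an H3K27ac region. Shares have 95% Wilson intervals, which take peaks as independent although neighbouring peaks can lie in the same H3K27ac region. Members, gene lists and settings were chosen with earlier results of these data known. All 9 members were named, with each gene-end peak, the strongest body and flank peak of each line, the best shared peaks and the widest H3K27ac region. Some further peaks and the bounds of the windows were named after their values were seen. Alternatives were a gene-end window of 2.5 kb, flanks of 20 and 100 kb, stricter q limits, the 5000 strongest RUNX2 peaks, an H3K27ac list of equal covered length, peak midpoints, 50% overlap, and, added after seeing the data, the RefSeq start windows. The count for 1 list of marker genes is not reported here. The overlap code was checked on simulated intervals. The tools were matplotlib 3.10.9, scipy 1.17.1, pandas 2.3.3 and numpy 2.4.6 under Python 3.11.15.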

Additional observations from a re-analysis of the deposited data

How the results depend on the processing

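Of 51 recomputed values, 37 kept within 1.5 times their count or within their interval, and 14 moved. With RUNX2 peaks of −log10 q 10 or more, KARPAS-45 had 34 peaks in the windows and PER-117 had 20, and 2 genes in KARPAS-45 (ELF1 and ETV6) and 1 in PER-117 (ELF1) had one at an end. With the 5000 strongest peaks of each line, which are a smaller part of the longer KARPAS-45 list, KARPAS-45 had 6 peaks and PER-117 had 13. Gene-end RUNX2 was then at 1 gene in KARPAS-45 (ETV6) and 1 in PER-117 (ELF1). Of the 13 PER-117 peaks 15.4% were in both lines, and 100% of the 6 KARPAS-45 and of the 13 PER-117 summits lay in H3K27ac. Shares over all genes and all peaks were not computed at these RUNX2 limits. With the 5379 widest H3K27ac regions of KARPAS-45, which together cover as much as the PER-117 list, 3 genes (ELF1, ETV6 and GABPA) had H3K27ac at an end and 63.2% of KARPAS-45 summits were acetylated, against 25.6% of all its summits. Cover of the windows was then 20.4% in KARPAS-45 and 16.4% in PER-117, but the rule keeps the wide KARPAS-45 regions of these windows. With H3K27ac of −log10 q 2 or more, 81.6% of KARPAS-45 summits were acetylated, against 54.2% of all. The causes of these changes were not tested, beyond the shorter lists. With a gene-end window of 2.5 kb H3K27ac lay at 7 genes in PER-117, FLI1 and SPIB being added. The share of all genes with gene-end H3K27ac was not computed for that window or for the shortened list. The limits are 1 library per line and antibody, read depth not analysed here, and peak lists of unequal length. No paired analysis was possible because each line had 1 library per antibody and no result came from a test.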

Other observations

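The KARPAS-45 H3K27ac regions of 72.3 to 80.4 kb at ETS1, ELF1 and ETV6 exceeded the 99th percentile of region width in that line, 22.9 kb, and the regions of 24.02 kb at ETV6, 12.2 kb at ETS1, 11.1 kb at ERG and 10.6 kb at ELF1 exceeded that of PER-117, 9.07 kb. Among these, the ERG region alone had no H3K27ac of the other line over it.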
